A study of Mus musculus with 8 samples.

Results

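Genes of the cell cycle, given as a list of 34 symbols, were read in perigonadal white adipose tissue (pgWAT) of male mice fed a high-fat diet (HFD) for 3 days. The list holds G1 cyclins and their kinases, the machinery that copies DNA, enzymes that supply deoxynucleotides, and the kinases, spindle proteins and ubiquitin ligase subunits of mitosis. Its members are the probes whose gene symbol, current or older, is on the list. Of the 34 genes, 30 had such a probe, with 61 probes in all, among 16593 gene symbols on the array. No probe analysed here carries the symbol of Cdk4, Ccnb1, Aurkb or Mki67. Intensities are linear brightness values with a background mode of 98.5, and the upper limit of that background was set at 106. Above 106 on 3 or more of the 8 arrays lay 42 member probes of 26 genes, of which 36 probes were above it on all 8 arrays, and 17 member probes were above it on 0 arrays. Ccna2, Ccnb2, Bub1 and Ube2c were represented by probes that stayed between 92.2 and 105.2, at or under the background limit on all arrays. Just inside the limit were Cdc20 probe ILMN_2698767 (103 to 117, above it on 4 arrays) and Mcm7 probe ILMN_2673889 (100.9 to 117, on 5 arrays). Just outside were Ccnd3 probe ILMN_2661849 (98.7 to 108, on 2 arrays) and Tyms probe ILMN_2434519 (96.4 to 106.3, on 1 array).

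Each array holds total RNA of the pgWAT of 1 mouse. The 5 mice labelled Con are littermates that carry the floxed Ogt allele without Cre, and the 3 labelled FKO carry the same allele with Cre under the Adiponectin promoter, which is active in adipocytes. All are B6 mice with a labelled age of 15 weeks, although the methods start the diet at a younger age. The labels and the study's figure legends give the same group sizes, and the methods give them the other way round. The gene deleted in FKO adipocytes, Ogt, encodes the transferase that attaches O-GlcNAc to proteins, and its probes did not separate the labelled groups. With its brightest probe the intensities were 188, 264, 199, 232 and 267 on the 5 Con arrays, in the order of their labels, and 296, 177 and 259.9 on the 3 FKO arrays (exact permutation test, two-sided, p = 0.768). On each of 3 Ogt probes the lowest arrays bore the labels Con 1, Con 3 and FKO 2. The sample titles read WT and KO, written here as Con and FKO, the study's names for these genotypes. Arrays are named below by label, so that Con 4 means the array titled WT replicate 4. Values are always listed from Con 1 to Con 5 and from FKO 1 to FKO 3. Cells other than adipocytes keep Ogt in such mice, and whether the probes lie in the deleted exons was not settled. Every direction from Con to FKO below is thus a direction between labels without support from Ogt.

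Adipocyte markers were bright on all 8 arrays. The 3 brightest of them, Lpl, Lep and Car3, ran from 12440 to 18020, near the top of the scale. The mean log2 intensity of all 14 tested lay between 10.89 and 11.17. Transcripts of the epididymis, which lies next to this fat pad, stood out on Con 2, FKO 1 and FKO 3. The epididymal inhibitor gene Spink8 was at 2420, 9243 and 9982 there and between 98.4 and 310 on the other 5 arrays. The counts of members and the log2 fold changes of the brighter members are given below with and without these 3 arrays.

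A dividing cell passes from G1 into S phase when D and E cyclins activate their kinases and E2F transcription factors are released to switch on genes for DNA replication. In G2 and mitosis another set of genes takes over, among them Cdk1, Plk1 and the Aurora kinases, and the anaphase-promoting complex with its activator Cdc20 then ends mitosis by marking cyclins for destruction. Mature adipocytes have left the cycle, whereas adipocyte precursors, macrophages and endothelial cells of the fat pad can divide, and a high-fat diet is known to set off a round of precursor division in this depot.

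The genes of these phases differ in the elements that stand near their start sites, and the windows of 4 members with a wide spread between arrays are shown because they differ in these elements. S-phase genes often carry E2F elements, whereas G2 and mitosis genes often carry CCAAT boxes, bound by NF-Y, and a cell cycle homology region (CHR). The windows run from 250 bases before to 50 after the start in RefSeq (GRCm38.p6), written 5′ to 3′ on the strand of the gene, and capitals mark the elements on either strand. A CCAAT box was searched as these letters. A CHR was searched as TTTGAA and, in its other form, as TTCGAA. An E2F element was searched as TTCCCGC, in a further form as TTCGCGC, in another as TTGCCGC and in the last form as TTGGCGC. The window of Cdk1 (chr10:69352863-69353162, minus strand) held 3 CCAAT, 2 CHR and 2 E2F matches, that of Cdc20 (chr4:118437294-118437593, minus strand) 2 CCAAT and 1 CHR match, and that of Plk1 (chr7:122159185-122159484, plus strand) 1 of each of these. The window of Mcm5 (chr8:75109259-75109558, plus strand) held 3 CCAAT and 3 E2F matches, 2 of the latter overlapping, and 0 CHR matches.
Cdk1: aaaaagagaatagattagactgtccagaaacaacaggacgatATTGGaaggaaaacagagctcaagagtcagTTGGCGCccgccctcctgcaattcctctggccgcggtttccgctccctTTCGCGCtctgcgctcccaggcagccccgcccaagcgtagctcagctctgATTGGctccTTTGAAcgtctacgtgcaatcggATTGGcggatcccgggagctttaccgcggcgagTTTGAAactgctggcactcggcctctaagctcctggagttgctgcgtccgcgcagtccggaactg
Cdc20: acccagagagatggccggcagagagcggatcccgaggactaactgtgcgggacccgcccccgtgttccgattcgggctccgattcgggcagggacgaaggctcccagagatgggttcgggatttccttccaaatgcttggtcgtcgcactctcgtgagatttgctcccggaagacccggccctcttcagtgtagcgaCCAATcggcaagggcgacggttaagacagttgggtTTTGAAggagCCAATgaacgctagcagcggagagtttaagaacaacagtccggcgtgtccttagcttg
Plk1: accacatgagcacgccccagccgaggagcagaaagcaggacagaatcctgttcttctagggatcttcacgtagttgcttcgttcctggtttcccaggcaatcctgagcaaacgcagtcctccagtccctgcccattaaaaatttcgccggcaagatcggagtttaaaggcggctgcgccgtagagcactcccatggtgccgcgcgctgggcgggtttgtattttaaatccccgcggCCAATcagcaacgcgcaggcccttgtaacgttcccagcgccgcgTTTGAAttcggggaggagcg
Mcm5: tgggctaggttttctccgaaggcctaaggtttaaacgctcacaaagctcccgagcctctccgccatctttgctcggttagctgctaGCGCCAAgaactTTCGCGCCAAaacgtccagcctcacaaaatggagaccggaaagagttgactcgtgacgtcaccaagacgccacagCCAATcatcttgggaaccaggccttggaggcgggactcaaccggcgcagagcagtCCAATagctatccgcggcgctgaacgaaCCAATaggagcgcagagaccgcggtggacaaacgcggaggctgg

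RefSeq windows were matched for 28 of the 34 members, 30 windows in all, and not for Ccna2, Ccnd1, Ccnd2, Ccne2, Mcm4 and Aurkb. Among 13 windows of mitotic members and the proliferation antigen gene Mki67, 10 (76.9%) held a CHR match and 3 (23.1%) an E2F match. Among 12 windows of replication and deoxynucleotide members the shares were the other way round, with a CHR match in 2 (16.7%) and an E2F match in 8 (66.7%). A CCAAT match stood in 11 of the mitotic windows (84.6%) and in 9 of the replication windows (75%), and windows of both groups held it more often than those of the G1 members, where 2 of 5 did. Over all 32851 windows the shares were 37.4% for CCAAT, 19.2% for CHR and 9.57% for E2F. Tk1, Tyms, Birc5 and Nusap1 held 0 matches of any of the 3 in these windows. A match is a run of letters and does not show that a factor binds there.

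Between the arrays labelled FKO and Con, none of the measured cell cycle genes passed the test in either direction. By limma with Benjamini-Hochberg adjustment over all 13925 probes tested, 0 of 42 member probes were higher and 0 lower, beside 0% of all probes in each direction. At an unadjusted p under 0.05 limma gave 0 of 42 member probes, beside 4.29% of all probes, and the smallest unadjusted p was 0.0596, for Cdk2 probe ILMN_2717613. The methods' t-test, run here on the background-corrected log2 values of the tested probes, also called 0 of 42, beside 0% of all probes higher and 0.00718% lower. The study ran it on its own quantile-normalized values and reported changed genes in both directions, so these shares are not the study's result. The labelled groups were free of overlap for 0 of 42 member probes, beside 2.63% of all probes (1.18% with FKO higher and 1.45% with FKO lower). With 42 probes, counts of 0 lie near this share and the 4.29% above, and do not set the members apart. With the brightest probe of each of the 26 genes, 19 log2 fold changes (FKO over Con) were positive and 7 negative, from −0.09 to 0.35 with standard errors of 0.07 to 0.44. Their median was 0.04, beside −0.02 over all 9686 genes tested, of which 43.4% were positive. The smallest p of an exact permutation test for a member was 0.107, where 56 splits of 8 arrays allow 0.0179. Without the 3 arrays with epididymal transcripts 1 array, FKO 2, is left under the FKO label and is assumed to vary like the Con arrays, so that the 0 member probes called there say little, and the median was 0.27. The p-values rest on the spread from mouse to mouse, and in bulk tissue fewer cells of a type and less RNA per cell cannot be told apart.

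**Figure D1:**
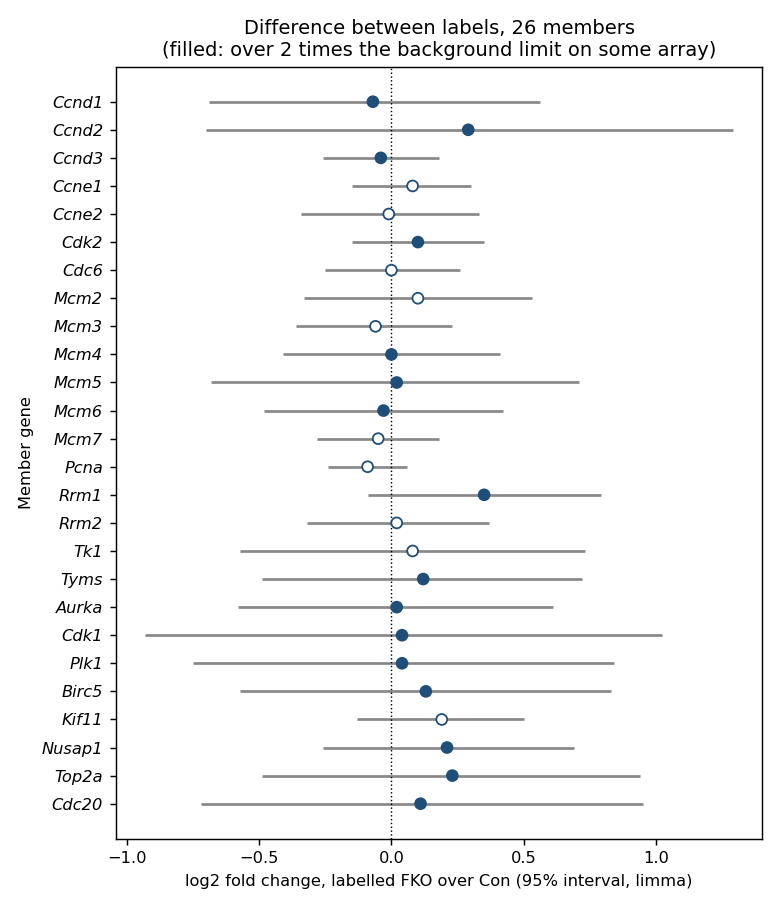
Log2 fold change of the 26 members above the background limit (FKO over Con by label, x axis) with its 95% interval from limma, 1 row per gene in order of role, with filled points for the 16 genes that passed 212 on some array. All 26 intervals include 0, and the widest is that of Ccnd2 (−0.70 to 1.29).

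The members differed more from array to array than most genes did, in an order that cut across the labels. The highest array stood at 1.68 times the lowest in the median member, beside 1.28 times in the median gene tested. The SD of log2 values over the 8 arrays was 0.30 in the median member, beside 0.15. These comparisons were not matched for brightness, and background compresses the folds of dim probes. Under 212 on all arrays were 51.7% of all probes tested. So were 10 of the 26 member genes, each taken by its brightest probe, which is a share of genes and not of probes. The array labelled Con 4 was the lowest for 21 of 26 members (80.8%), beside 15.7% of all genes tested. Either Con 1 or FKO 2 was the highest for 21 of 26 (80.8%), beside 24.3% of all genes, and these 2 arrays were the 2 highest for 17 of 26 (65.4%), beside 10.9%. Mcm2, where Con 1 tied with FKO 3 at 176.3, is counted here and below as highest on Con 1. Leaving out the G1 cyclins and kinases, Con 4 was the lowest for 17 of 20 members (85%) and Con 1 or FKO 2 the highest for 18 (90%). Over the 5 arrays without epididymal transcripts, Con 4 was the lowest for 24 of 26 (92.3%, beside 28.8% of all genes) and Con 1 or FKO 2 the highest for 21 (80.8%, beside 32.1%). The lowest array and 1 of the 2 high arrays bear the label Con, and the other high array bears the label FKO. The order was noticed in these values and is given as a description. Genes are not replicates of an array, each array is 1 mouse, and Con 1 and FKO 2 are also 2 of the 3 arrays with the least Ogt signal.

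**Figure D2:**
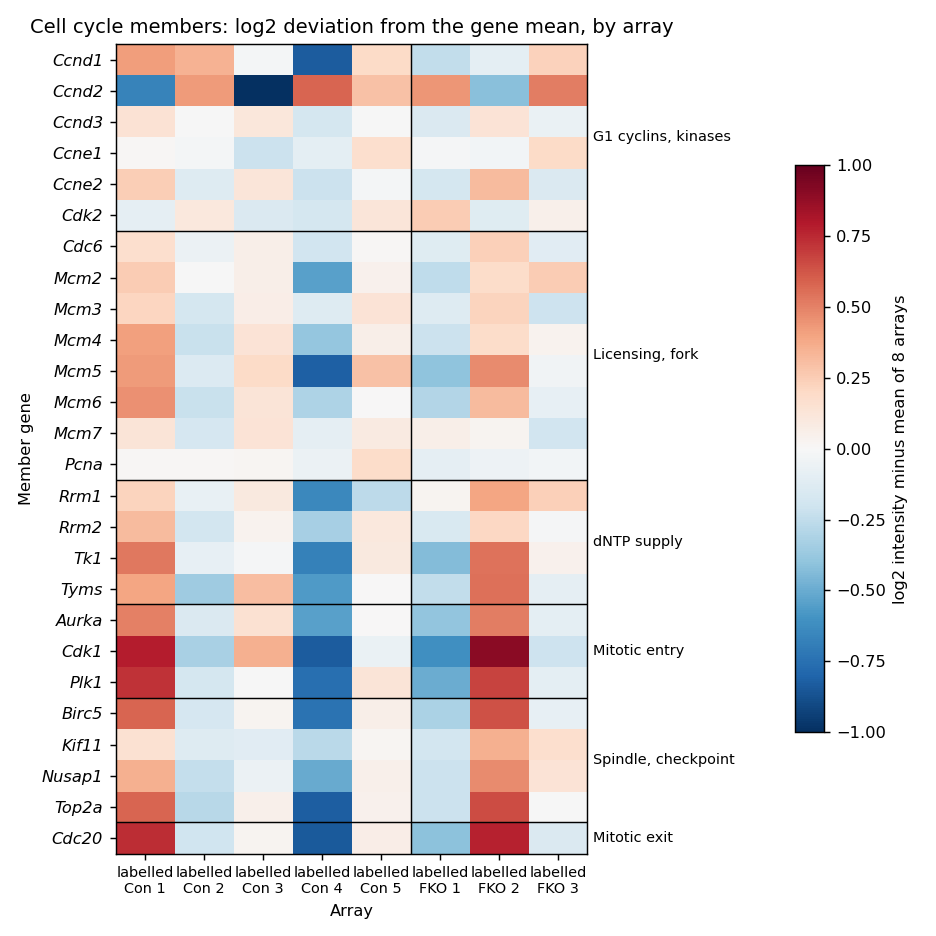
Log2 intensity of the 26 members on each array minus the gene's mean over the 8 arrays, with red above and blue below that mean, a scale that ends at −1 and 1, genes in rows by role and arrays in columns by label. The column of Con 4 is mostly blue and those of Con 1 and FKO 2 mostly red from the licensing genes down, as Con 4 is the lowest array for 21 of 26 members. The row of Ccnd2, whose value on Con 3 lies past the end of the scale, runs the other way, and those of Ccnd3 and Cdk2 are pale, with 1.23-fold and 1.31-fold ranges.

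Among 6 G1 cyclins and kinases Con 4 was the lowest array for 4 (66.7%), and Con 1 and FKO 2 were the 2 highest for 2, Ccnd3 and Ccne2. Ccnd1, the D cyclin that growth factors induce, was at 1149, 1095, 853, 507 and 984 on the Con arrays and at 737, 809 and 1007 on the FKO arrays. It was lowest on Con 4 and highest on Con 1 and Con 2, and its group means of 918 ± 256 (SD, n = 5) and 851 ± 140 (SD, n = 3) differed by less than the spread within them (log2 fold change −0.07, 95% interval −0.69 to 0.56). Ccnd2, which encodes another D cyclin, ran the other way, with 419.9, 852, 307, 944 and 778 on the Con arrays and 863, 494 and 901 on the FKO arrays. Con 3, Con 1 and FKO 2, the 3 arrays with the least Ogt signal, were its lowest and Con 4 its highest, and its 3.07-fold range was the widest among the members. By label its log2 fold change was 0.29 with a standard error of 0.44, and it was −0.17 without the 3 arrays with epididymal transcripts. Ccnd3, the third D cyclin, had the order of the other members within a narrow 1.23-fold range, from 959 on Con 4 to 1179 on FKO 2 and 1181 on Con 1, with means of 1089 ± 89.1 (SD, n = 5) for Con and 1061 ± 106 (SD, n = 3) for FKO. Cdk2, the partner of E cyclins, was nearly as even and also lowest on Con 4, from 422 there to 555 on FKO 1 (log2 fold change 0.10, 95% interval −0.15 to 0.35). The E cyclin genes Ccne1 (105 to 126) and Ccne2 (104 to 133) lay close to the background limit on all arrays. Without the 3 arrays with epididymal transcripts the log2 fold changes of Ccnd1, Ccnd3 and Cdk2 were −0.05, 0.12 and −0.04.

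The brighter replication licensing genes had this order of arrays. The Mcm genes encode subunits of the helicase that is loaded on origins and unwinds DNA. Mcm4 was at 884, 586, 740.3, 529 and 702 on the Con arrays and at 590.5, 763 and 693 on the FKO arrays. Its lowest array was Con 4 and its highest Con 1, followed by FKO 2, and the group means of 688 ± 139 (SD, n = 5) and 682 ± 87 (SD, n = 3) were nearly the same (log2 fold change 0.00, standard error 0.18). Mcm5 gave 339, 242, 295, 166 and 313 under the label Con and 208, 349 and 257 under FKO. Here FKO 2 was 2.10 times Con 4, whereas the group means were 271 ± 68.5 (SD, n = 5) and 271 ± 71.5 (SD, n = 3) (log2 fold change 0.02, 95% interval −0.68 to 0.71). Without the 3 arrays with epididymal transcripts Mcm4 was at 0.13 and Mcm5 at 0.45 on the log2 scale. Mcm6 read 284, 193, 234, 183 and 218 on Con and 185, 262 and 208 on FKO arrays, again lowest on Con 4 and highest on Con 1 (log2 fold change −0.03, standard error 0.20), with 0.25 once the 3 arrays with epididymal transcripts were left out. The remaining licensing and fork genes were dim. Mcm2 lay between 119 on Con 4 and 176 on both Con 1 and FKO 3, and Cdc6, which loads the helicase, lay between 106.5 on Con 4 and 129 on FKO 2. Mcm3, Mcm7 and the sliding clamp gene Pcna did not have Con 4 as their lowest array, and their whole ranges ran from 100.9 to 134.

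All 4 genes of deoxynucleotide supply were lowest on Con 4 and highest on FKO 2 or Con 1. Rrm1, the large subunit of ribonucleotide reductase, was at 343, 286, 317, 206 and 256 on the Con arrays and at 303, 382 and 345 on the FKO arrays. FKO 2 and FKO 3 lay above all 5 Con arrays and FKO 1 did not, with means of 282 ± 53.4 (SD, n = 5) for Con and 343 ± 39.4 (SD, n = 3) for FKO. This was the largest log2 fold change among the members, 0.35 with a 95% interval of −0.09 to 0.79 (exact permutation p = 0.179), and without the 3 arrays with epididymal transcripts it was 0.55. Tyms, which makes thymidylate, gave 334, 215, 319, 191 and 265 under the label Con and 229, 368 and 251 under FKO. Con 4 was lowest and FKO 2 highest, at 1.93 times Con 4, and the log2 fold change between labels was 0.12 (standard error 0.26), or 0.52 without the 3 arrays with epididymal transcripts. The thymidine kinase gene Tk1, though dim, ran from 111 on Con 4 to 205 on FKO 2, with 202 on Con 1. The brighter of the probes for Rrm2, the small subunit of ribonucleotide reductase, went from 107 on Con 4 to 145 on Con 1.

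Kinases of mitotic entry were high and low on the same arrays. Cdk1, the kinase that drives cells into mitosis, was at 294, 158, 229, 123 and 181 on the Con arrays and at 137, 316 and 168 on the FKO arrays. FKO 2 stood at 2.57 times Con 4, the 2 high values fell 1 under each label, and FKO 1 was nearly as low as Con 4. The group means were 197 ± 66.4 (SD, n = 5) for Con and 207 ± 95.7 (SD, n = 3) for FKO (log2 fold change 0.04, 95% interval −0.93 to 1.02), and changes inside that interval could not be told from 0. Plk1, a kinase of spindle assembly and mitotic exit, read 349, 206, 227, 151 and 244 on Con and 173, 338 and 215 on FKO arrays, and its arrays other than Con 1 and FKO 2 were at or below 244. Its group means were 235 ± 72.5 (SD, n = 5) and 242 ± 86.1 (SD, n = 3), a log2 fold change of 0.04 (standard error 0.35). Aurka, the centrosome kinase that activates Plk1, repeated the order within a narrower span, from 126.5 on Con 4 to 220.5 on FKO 2 (log2 fold change 0.02, 95% interval −0.58 to 0.61). Without the 3 arrays with epididymal transcripts, which leaves FKO 2 as the single FKO array, the log2 fold changes of Cdk1, Plk1 and Aurka were 0.84, 0.65 and 0.49.

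**Figure D3:**
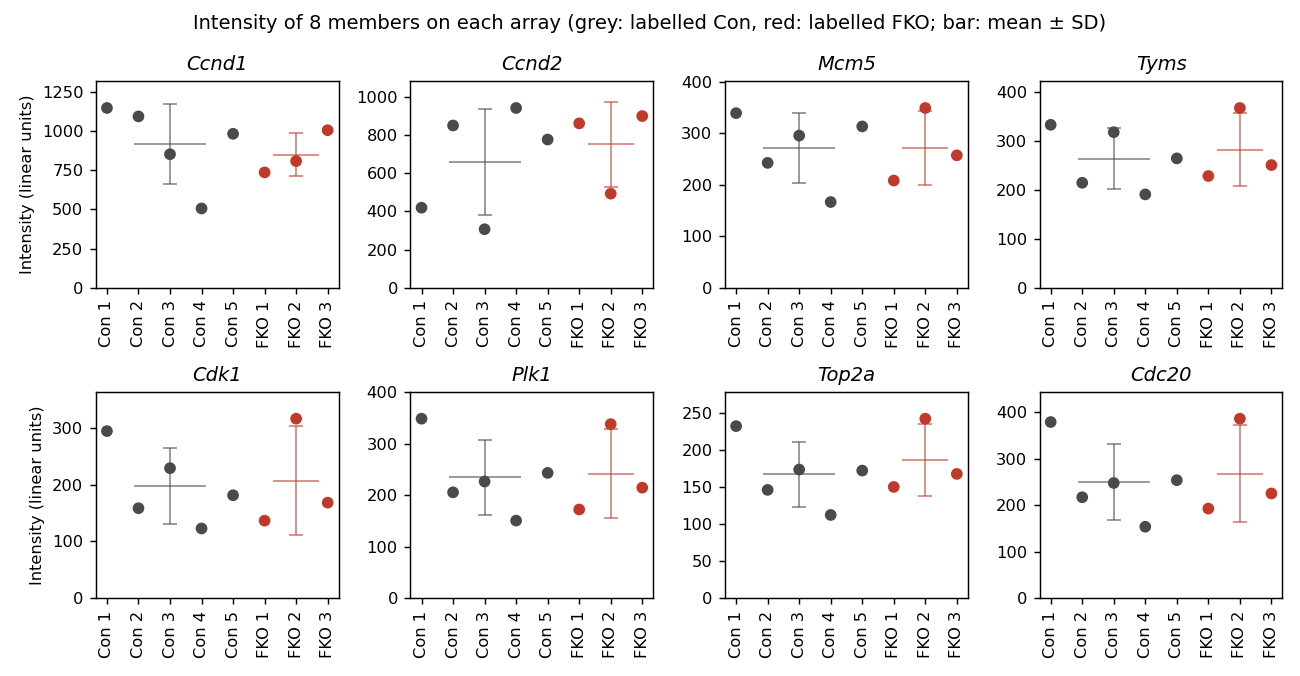
Deposited linear intensity (y axis, from 0) of 8 members on each of the 8 arrays (x axis, by label), with grey points for Con, red points for FKO and bars for each label's mean ± SD. In Mcm5, Tyms, Cdk1, Plk1, Top2a and Cdc20 the points of Con 1 and FKO 2 stand high and that of Con 4 low, and in Ccnd2 Con 4 stands highest at 944.

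The 4 measured genes of the spindle and chromosomes were lowest on Con 4 and highest on FKO 2, and the checkpoint kinase gene Bub1 was not above the background limit. Top2a, the topoisomerase that untangles sister chromosomes, was at 232, 146, 173, 112 and 172 on the Con arrays and at 149.9, 242 and 167 on the FKO arrays. FKO 2 and Con 1 were the 2 highest and Con 4 the lowest, and the group means of 167 ± 43.9 (SD, n = 5) and 186 ± 48.8 (SD, n = 3) gave a log2 fold change of 0.23 (95% interval −0.49 to 0.94). Birc5, the survivin subunit of the chromosomal passenger complex, gave 255, 168, 187, 126 and 190.1 on Con and 156, 265 and 177 on FKO arrays with its brightest probe. It was lowest on Con 4 and highest on FKO 2, and the labels differed by 0.13 on the log2 scale (standard error 0.30). Nusap1, which bundles spindle microtubules, ran from 138 on Con 4 to 232 on FKO 2 with 218 on Con 1 (log2 fold change 0.21, 95% interval −0.26 to 0.69). The spindle motor gene Kif11, close to the background limit, ran from 106.5 on Con 4 to 143 on FKO 2, and its second highest array was FKO 3 at 130.4. With FKO 2 as the single FKO array left beside 4 Con arrays, the log2 fold changes were 0.69 for Top2a, 0.66 for Birc5 and 0.51 for Nusap1.

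Cdc20, the activator of the anaphase-promoting complex, was the mitotic exit gene that could be read. Its brightest probe was at 379, 218, 248, 154 and 254 under the label Con and at 193, 387 and 226 under FKO. Con 1 and FKO 2 stood high and the other 6 arrays at or below 254, and FKO 2 was 2.51 times Con 4. The group means were 251 ± 82.2 (SD, n = 5) for Con and 268 ± 104 (SD, n = 3) for FKO (log2 fold change 0.11, standard error 0.37), and without the 3 arrays with epididymal transcripts the log2 fold change was 0.77. On all 4 tested Cdc20 probes Con 4 was the lowest array and Con 1 or FKO 2 the highest.

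Of 9 members with several tested probes, 5 had the same lowest array on each probe and 2, Birc5 and Tyms, the same highest array. All 3 Birc5 probes were lowest on Con 4 and highest on FKO 2, all 3 Ccnd1 probes were lowest on Con 4, and so were both probes of Rrm2 and of Tk1. The 3 tested Mcm6 probes disagreed, with FKO 1 lowest on 1 of them (log2 fold change −0.21) and Con 4 on the others. Of 4 Cdk2 probes, 2 were lowest on Con 4, 1 on Con 3 and 1 on Con 2, with log2 fold changes from −0.02 to 0.22. The dimmer probes of Tyms and Ccnd3 had FKO 1 and FKO 3 as their lowest arrays. Among the 10 members under 212 on all arrays, namely Ccne1, Ccne2, Cdc6, Mcm2, Mcm3, Mcm7, Pcna, Rrm2, Tk1 and Kif11, intensities ran from 100.9 to 205 and log2 fold changes from −0.09 to 0.19, with 95% intervals inside −0.57 to 0.73. At that brightness the background makes up much of the signal and folds are compressed. Con 4 was lowest in 6 of these 10 and Con 1 or FKO 2 highest in 7, against 15 and 14 of the 16 brighter members.

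Other genes of G2 and mitosis, 33 of 61 listed with a tested probe, went with the members. By limma 0 of 33 were higher and 0 lower between the labels, 25 log2 fold changes were positive and 8 negative, and the median was 0.04. Con 4 was the lowest array for 21 (63.6%) and Con 1 or FKO 2 the highest for 28 (84.8%). Named by their p alone, the centriole kinase gene Plk4 had a log2 fold change of −0.12 (standard error 0.07), Cdca3, which triggers the breakdown of a mitosis inhibitor, one of 0.23 (0.26), the cohesin protector Sgol1 one of 0.08 (0.10), and the tubulin gene Tubb5 one of −0.09 (0.13). Prc1 and Cenpa spread widely between arrays and were picked after their values were seen. Prc1, which crosslinks the midzone of the spindle, was at 691, 356, 474, 187 and 434 on Con and 303, 744 and 434 on FKO arrays. Cenpa, the histone of the centromere, was at 800.1, 438, 531, 299 and 511 on Con and 403, 785 and 506 on FKO arrays. Both were lowest on Con 4 and had Con 1 and FKO 2 as their 2 highest arrays.

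Of 45 further S-phase genes 29 were tested, with 0 higher and 0 lower by limma, 12 positive and 17 negative log2 fold changes and a median of −0.02. Con 4 was the lowest array for 14 of them (48.3%) and Con 1 or FKO 2 the highest for 23 (79.3%). The order was shared less fully than among the members. Con 1 and FKO 2 were the 2 highest for 12 (41.4%, beside 65.4% of members), and FKO 1 was the lowest for 8 (27.6%, beside 13% of all genes). Orc6, a subunit of the origin recognition complex, had a log2 fold change of 0.19 (95% interval −0.01 to 0.38) and the activator E2f3 one of −0.20 (−0.45 to 0.04). Dut, which clears dUTP, lay between 109 and 118 with a log2 fold change of −0.09, and E2f1 lay between 206 and 305 with one of −0.19 (standard error 0.16).

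Inhibitors and quiescence genes did not share the order as a list. Con 4 was the lowest array for 5 of 26 tested (19.2%, beside 15.7% of all genes) and the highest for 9 (34.6%, beside 16.8%). Con 1 or FKO 2 was the highest for 9 (34.6%, beside 24.3%), and they were the 2 highest for 6 (23.1%, beside 10.9%). Of 35 listed, 26 were tested, with 0 called in either direction, 16 positive and 10 negative log2 fold changes and a median of 0.02, and their mean deviation from the average over arrays stayed within −0.06 to 0.06 on the log2 scale. E2f5, a repressor E2F, had a log2 fold change of 0.21 (standard error 0.13), the forkhead factor Foxo1 one of −0.26 (0.17), the repressor E2f6 one of −0.16 (0.11) and the kinase inhibitor Cdkn2b one of −0.26 (0.24). Single inhibitors, picked after their values were seen, ran in opposite directions. Cdkn2c, an inhibitor of the D cyclin kinases, was at 2337, 3137, 2554, 3968 and 3273 on Con and 3487, 2781 and 3029 on FKO arrays, highest on Con 4 and lowest on Con 1. Cdkn1c, the p57 inhibitor, was also highest on Con 4, at 1505 beside 601 to 1093 on the other 7 arrays. Cdkn2a, dim throughout, was highest on FKO 2 at 154, Con 1 at 138 and Con 3 at 136.5, beside 98.0 to 104 on the other 5. Other cyclins, kinases and their partners, 25 of 40 tested, had 0 calls, 13 positive and 12 negative log2 fold changes and a median of 0.00. They did not share the order as a list either. Con 4 was the lowest array for 4 (16%, beside 15.7% of all genes) and the highest for 7 (28%, beside 16.8%). Either Con 1 or FKO 2 was the highest for 5 (20%, beside 24.3%). In this list Cdk13 (log2 fold change 0.13), Cdc16 (−0.14), Anapc7 (−0.11) and Cul1 (−0.11) had the smallest p, all unadjusted p above 0.05.

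**Figure D4:**
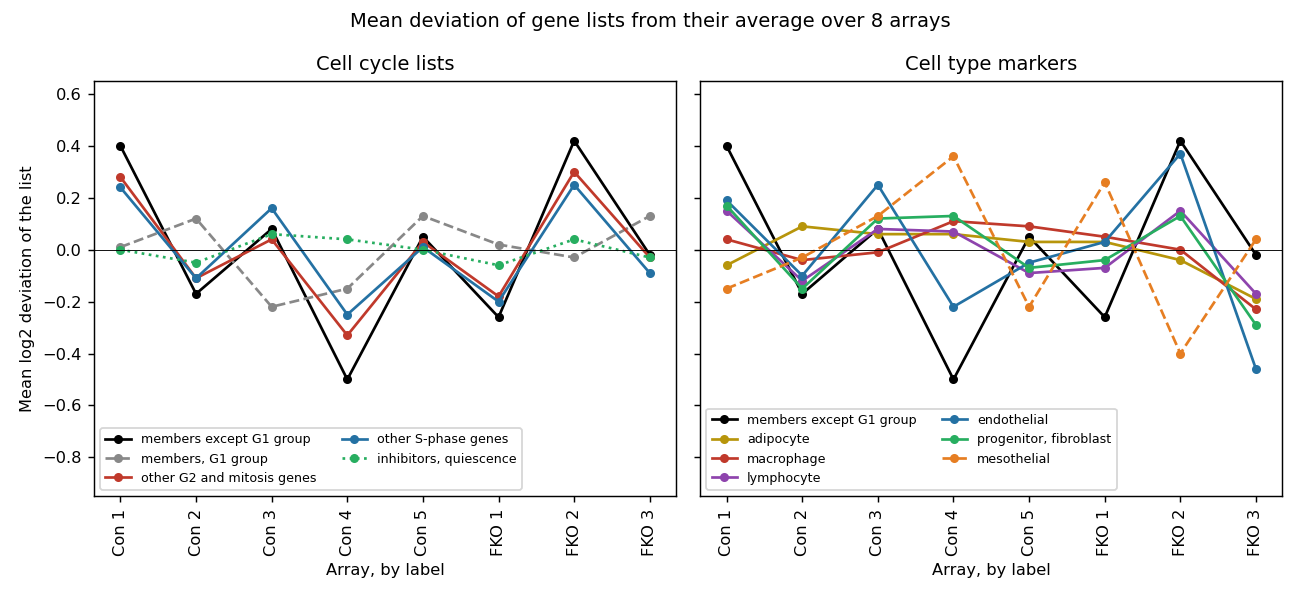
Mean log2 deviation of each list from its own average over the 8 arrays (y axis) by array label (x axis), with cell cycle lists on the left and cell type markers on the right, and the members other than the G1 group in black in both. Those members stand at 0.40 on Con 1, 0.42 on FKO 2 and −0.50 on Con 4, the other G2 and mitosis genes at 0.28, 0.30 and −0.33, and the adipocyte, macrophage and inhibitor lines stay closer to 0.

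Markers of the cell types in the fat pad moved with the members in part. Endothelial markers (11 of 12 tested, 0 called) were high on FKO 2 at 0.37, Con 3 at 0.25 and Con 1 at 0.19 and low on Con 4 at −0.22, all as mean log2 deviation, but their lowest array was FKO 3 at −0.46. The endothelial adhesion gene Esam was at 1720, 1051, 1646, 1072 and 1343 on Con and 1333, 1864 and 832 on FKO arrays. The mean log2 intensity of the list ran from 8.05 to 8.52 on Con and from 7.81 to 8.63 on FKO arrays. Lymphocyte markers (6 of 13 tested) stood at 0.15 on both Con 1 and FKO 2 and at 0.07 on Con 4, with Nkg7 from 115 to 171 and Cd3e from 109 to 142. Macrophage markers (11 of 16 tested) were at 0.04 on Con 1, 0.00 on FKO 2 and 0.11 on Con 4, and Lyz2 was at 3419 on Con 4, its highest array. Markers of progenitors and fibroblasts (11 of 14 tested) stood at 0.17, 0.13 and 0.13 on Con 1, FKO 2 and Con 4. Of these lists, then, the endothelial one was low on Con 4 and the macrophage, progenitor and lymphocyte ones were not.

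Adipocyte markers (14 of 15 tested) were at −0.06 on Con 1, −0.04 on FKO 2 and 0.06 on Con 4, with their lowest value, −0.19, on FKO 3. Con 4 was the highest array for 7 of the 14 (50%, beside 16.8% of all genes). Either Con 1 or FKO 2 was the highest for 1 (7.14%, beside 24.3%). Mesothelial markers (9 of 9 tested) ran against the members, with 0.36 on Con 4, −0.15 on Con 1 and −0.40 on FKO 2, and the surface layer gene Upk3b was at 1069 on Con 4 and 466 on FKO 2. Erythroid markers (4 of 11 tested) lay within −0.20 to 0.16. Epididymal markers (9 of 20 tested) were at 2.10 on FKO 1, 2.57 on FKO 3 and 0.41 on Con 2 and between −1.25 and −0.77 on the other 5 arrays, with Adam7 at 3939, 7925 and 531 on those 3 arrays and 117 to 221 elsewhere. Both high arrays of the members thus belong to the 5 without this signal, and so does their lowest array. By limma 0 genes of any of these 8 marker lists were called between the labels. The part of each cell type in the array order of the cell cycle genes was not tested.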

How the data were processed

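Illumina MouseRef-8 v2.0 arrays measured total RNA of pgWAT from 8 mice, and groups were taken from the sample labels. The authors quantile-normalized the intensities before they deposited them, and the software, any background step and the genome build are not given in the sources used here. A table of non-normalized signals was not used, since its 16 columns carry numbers that no label explains. Of 25697 probes, 23978 carried 1 gene symbol in the platform annotation, 0 several and 1719 none, and 23962 were matched to current symbols by Entrez ID.

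The background limit of 106 is the mode of all values plus the distance from the mode to the 1st percentile of the values below it. On each array 51.7% to 51.8% of probes were above it, and precision is limited by the number of arrays. After normexp correction (offset 50) and quantile normalization, log2 intensities were fitted by label with limma 3.58.1 in R 4.3.3 (lmFit, eBayes, two-sided, Benjamini-Hochberg, threshold 0.05) over the 13925 probes above the limit on 3 or more arrays, with code tested on simulated data. Fold changes are on this corrected log2 scale, which understates those of dim probes. The methods' t-test was run on the same corrected log2 values, with p under 0.01 and a fold above 1.5. A gene is given by its brightest probe, and other genes named are Ogt, up to 4 of each pathway list by the smallest p and up to 3 of each cell type list by brightness. Members and lists were chosen with earlier results of these data known. Same-numbered arrays of the labels deviated in opposite directions (correlations of −0.562, −0.702 and −0.412 over 13925 probes). The numbers were thus not taken to pair mice, though these correlations cannot exclude it. Promoter windows are from RefSeq (GRCm38.p6). Alternatives were other background corrections, normalization, filters, array weights, variance models, t-tests, the replicate block and leaving out arrays. Figures were drawn with matplotlib 3.10.9.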

Additional observations from a re-analysis of the deposited data

How the results depend on the processing

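Of the member probes 0 were called higher and 0 lower under every alternative, of which the one without 3 arrays leaves 1 FKO array and says little. On the corrected log2 values of all tested probes the methods' t-test gave 1 lower probe and the unequal-variance t-test 3, where limma gave 0. Leaving out 1 array, limma called 0 to 192 probes higher and 0 to 15 lower, with 0 member probes among them. The calls were 192 higher and 2 lower without FKO 2 and 15 lower without Con 5. Without FKO 2 the FKO arrays left are FKO 1 and FKO 3, both with epididymal transcripts, which among the Con arrays stood out on Con 2 alone. The part of these transcripts in the 192 calls was not tested. The median member log2 fold change of 0.04 moved between −0.10 (without FKO 2) and 0.19 (without FKO 1) and was −0.07 without Con 4, −0.13 with array weights and −0.07 with the replicate block, which called 0 probes. Of 284 member values under alternatives 232 kept their direction, and 0 were called. Array weights turned Mcm4 to −0.16, Mcm5 to −0.27, Tyms to −0.13, Cdk1 to −0.41, Plk1 to −0.31, Aurka to −0.26, Top2a to −0.06, Birc5 to −0.16, Nusap1 to 0.00 and Cdc20 to −0.24. The replicate block rests on numbers that are not known to pair the mice. It turned Mcm4 to −0.10, Mcm5 to −0.15, Tyms to −0.04 and Cdk1 to −0.25. It also turned Plk1 to −0.16, Aurka to −0.16, Birc5 to −0.06 and Cdc20 to −0.12. Without the 3 arrays with epididymal transcripts, with 1 FKO array left and values of all 16 brighter members in the range from −0.17 to 0.84, Ccnd2 was at −0.17, Ccnd3 at 0.12, Cdk2 at −0.04 and Mcm6 at 0.25. Leaving out single arrays gave Aurka −0.24 to 0.22, Birc5 −0.15 to 0.33, Ccnd1 −0.28 to 0.04, Ccnd2 0.02 to 0.59, Ccnd3 −0.12 to 0.02, Cdc20 −0.23 to 0.36, Cdk1 −0.39 to 0.37, Cdk2 0.01 to 0.19, Mcm4 −0.09 to 0.11, Mcm5 −0.21 to 0.23, Mcm6 −0.20 to 0.11, Nusap1 0.05 to 0.39, Plk1 −0.28 to 0.31, Rrm1 0.22 to 0.45, Top2a −0.03 to 0.41 and Tyms −0.12 to 0.28. At 2 times the limit 12 members remained above it on 3 or more arrays, and of these, with fewer genes counted, Con 4 was lowest in 11 and Con 1 or FKO 2 highest in 10. The counts of 21 of 26 were taken from the deposited intensities. With no background correction they could not change, as that setting takes the log2 of the same values. They were also 21 with a smaller offset or median centring. These settings act on values that were already quantile-normalized, so they test the order little. All were chosen after seeing the data. For the members under 212 on all arrays the signal lies near the background and differences are hardly detectable.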
